A study of Mus musculus with 4 samples.

Results

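Cluster 3 was a group of 600 splenic myeloid cells, most of them from mice given GM-CSF. Cd209a and Atf3 RNA was high in it, and nearly all cells lay outside the CD115hi gate. The antibody tag of CD301b was high in many cells of the GM-CSF library (median count 103.5) but not in the steady-state cells (median 1). The cells were chosen by the cluster number 3 that the authors deposited for the bundle of monocytes, macrophages and DCs, which held 6075 of the 11631 sorted CD11b+ cells in 17 clusters. Of the 600 cells, 512 came from the GM-CSF library (of 3940 bundle cells) and 88 from the steady-state library (of 2135), so that 85.3% were GM-CSF conditioned, as the label of the cluster says.

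Splenocytes of C57BL/6 mice aged 8 to 12 weeks were sorted for CD11b and profiled by CITE-seq, in which RNA and antibody tags are counted in the same cell as UMIs and tag counts. Steady-state mice received no cytokine, and GM-CSF-conditioned mice received 3 once-daily subcutaneous injections of 10 µg GM-CSF, with cells taken 24 hours after the last. Each condition was 1 library, and the number of mice behind a library was not given in the sources used here. There is therefore no replicate and no test, intervals cover counting error only, and an effect of GM-CSF cannot be told apart from a difference between the 2 libraries.

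GM-CSF is a cytokine that drives growth and differentiation of myeloid cells, and in the spleen it is known to raise cells with features of DCs from monocyte or progenitor sources. DCs take up antigen, present it on MHC class II and depend in their progenitor stages on receptors such as FLT3. CD301b, the product of Mgl2, and CD209a are C-type lectins of DCs and macrophages, and CD115 is the receptor for CSF1 encoded by Csf1r. The study divided CD115hi cells by antibody tags into the subsets P-I to P-IV, of which P-IV was negative for Ly6C and positive for MHC class II and CD301b.

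Cluster 3 held 3396439 UMIs in the GM-CSF library (median 6440 UMIs and 2344 genes per cell, 4.48% mitochondrial) and 727070 in the steady-state library (7978.5 UMIs, 2615.5 genes, 3.38% mitochondrial). A gene with 0 UMIs could thus stand at up to 0.883 UMIs per 1000000 UMIs (CPM) in the first and 4.13 CPM in the second. None of the 600 cells was called a doublet by Scrublet, against 327 of all 11631 cells (2.81%). No barcode was shared between the libraries within cluster 3, and 1 of its cells had a barcode that occurred in both libraries, among 8 such barcodes in all. Clusters 0, 1 and 9, used for comparison, held 668, 577 and 236 cells of the GM-CSF library, but cluster 0 only 14 and cluster 1 only 49 of the steady-state library. When the authors clustered all CD11b+ cells, 583 of the 600 cells lay in their mixed cluster 2, 15 in mixed cluster 1 and 2 among progenitor DCs.

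The sort and the broad lineage could be read in the RNA. Itgam, the gene of CD11b, stood at 146 CPM (134 to 160) in the GM-CSF library and 169 CPM (141 to 202) in steady state. The summed CPM of the marker lists for basophils, T cells, B cells, platelets and erythroid cells was 0, 0.883, 3.24, 0.294 and 0.883 in the GM-CSF library, and that of NK cells 7.36. Of the 12 neutrophil markers none was at 0, and their sum of 243 CPM lay next to 288 in cluster 0, 268 in cluster 1 and 234 in cluster 9. The 4 cDC2 markers summed to 2.65 CPM, with Dtx1 at 0. The 7 cDC1 markers summed to 1024 CPM, against 1068 in cluster 0, 972 in cluster 1 and 628 in cluster 9. Of these 7, the defining cDC1 genes Xcr1 and Clec9a stood at 0.883 and 3.83 CPM in cluster 3. In steady state 28 Siglech and 32 Ly6d UMIs, markers of plasmacytoid DCs and B-lineage cells, all came from 1 cell.

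The 15 genes that set cluster 3 apart most from any other cluster included the early-response transcription factors Atf3 and Egr1, genes of sterol and fatty acid synthesis, and Cd209a. They were ranked in the GM-CSF library by the ratio of CPM in cluster 3 to that in the highest other of the 15 clusters with at least 100000 UMIs, over 6495 genes, of which 0 (0%) reached 2-fold. Since the authors clustered the cells on these RNA counts, the ratios describe the cluster and are no test of it. No gene with at least 50 UMIs thus stood 2-fold above all those clusters, and the leading genes differed in degree.

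Among them, 6 genes encode enzymes that build cholesterol precursors or fatty acids. Hmgcs1, which makes HMG-CoA, stood at 123 CPM (111 to 135) in cluster 3, against 44.0 in cluster 0, 58.6 in cluster 1 and 78.7 in cluster 9. Sqle, squalene epoxidase, stood at 49.2 CPM (42.0 to 57.2), against 16.6, 21.7 and 23.5. Fdps, which makes farnesyl pyrophosphate, stood at 121 CPM (109 to 133), against 63.5, 65.8 and 52.4. In each case cluster 3 was the highest of the 3 neighbours and of all clusters, by 1.56-fold for Hmgcs1, 1.64-fold for Sqle and 1.55-fold for Fdps over the next. Idi1, isopentenyl-diphosphate isomerase, stood at 77.4 CPM (68.4 to 87.4), Pmvk, phosphomevalonate kinase, at 95.1 (85.0 to 106) and Fasn, fatty acid synthase, at 61.2 (53.2 to 70.2). In the steady-state library, whose 88 cells were sampled apart, cluster 3 was again the highest of 16 clusters for Hmgcs1 (140 CPM, 114 to 170), Sqle (48.1, 33.5 to 66.9) and Idi1 (96.3, 75.1 to 122), but ranked 2 for Fdps and Pmvk and 3 for Fasn. With both libraries pooled, Fasn was 0.816 of the highest other cluster.

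The other leading genes were led by Atf3, a stress-induced transcription factor, at 364 CPM (344 to 384) in cluster 3 against 183 in cluster 0, 121 in cluster 1 and 148 in cluster 9. Egr1, an immediate early transcription factor, stood at 231 CPM (215 to 248), against 73.0, 36.8 and 130. Ppp1r15a, which reverses the translational arrest of the integrated stress response, stood at 109 CPM (98.1 to 121), against 46.8, 42.6 and 67.2. These 3 genes were higher in steady-state cells of the cluster than in GM-CSF-conditioned ones, at 653, 451 and 160 CPM. Their ratios of the GM-CSF to the steady-state library were 0.556, 0.512 and 0.681. In clusters 1 and 9 these genes were lower still in the GM-CSF library, at 0.240, 0.153 and 0.196 and at 0.330, 0.185 and 0.310. Their order against the neighbours did not hold throughout in steady state. Egr1 was there below cluster 9 (703 CPM, ratio 0.642, 0.561 to 0.733), as also with both libraries pooled (0.749), and Ppp1r15a was below cluster 1 (217 CPM, 0.733, 0.545 to 0.996) and cluster 9 (218 CPM, 0.734, 0.580 to 0.922). Of the other leading genes, Gm26532 was below cluster 1 in steady state (0.635, 0.429 to 0.9495), while the ratios of Tcea3 (0.686 to cluster 1 and 0.942 to cluster 9) and Pmvk (0.889 to cluster 1) had intervals on both sides of 1. The remaining leading genes were Tcea3, an elongation factor (82.7 CPM), the adhesion gene Cdh1 (16.8), Suox, sulfite oxidase (29.4), Arhgef40 (22.1) and the lincRNA Gm26532 (46.8).

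**Figure D1:**
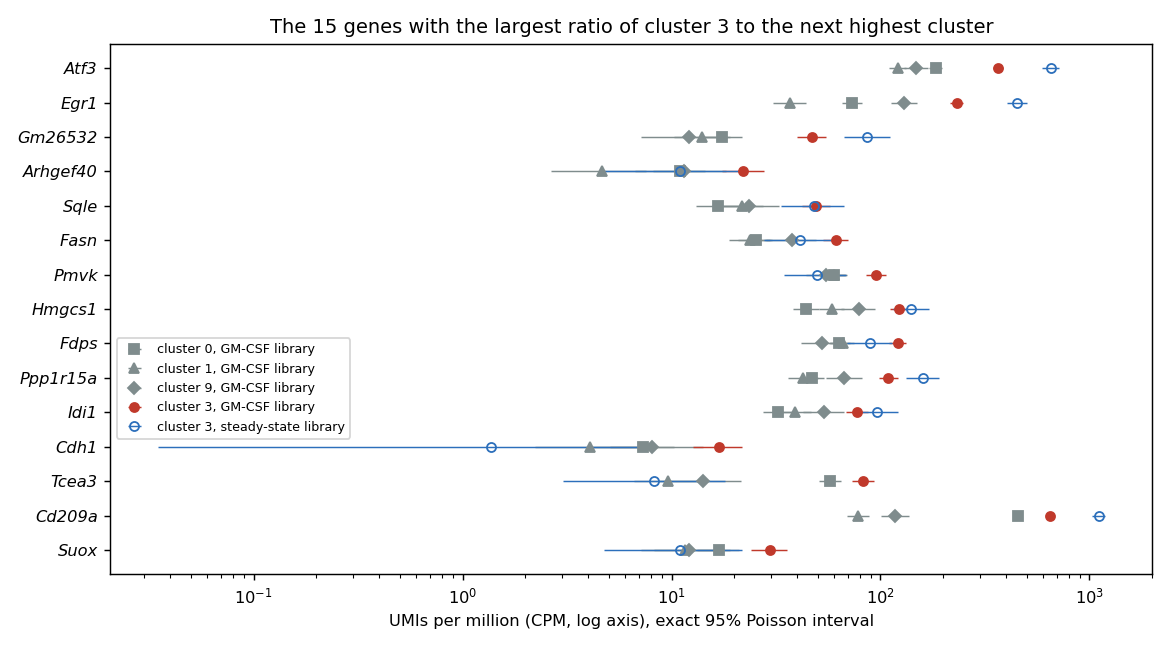
CPM (log axis, exact 95% Poisson intervals) of the 15 genes with the largest ratio of cluster 3 to the next highest cluster, in the GM-CSF library for clusters 0, 1, 9 and 3 and in the steady-state library for cluster 3. Red points of cluster 3 lie to the right of the gray points for every gene, and the steady-state points of cluster 3 lie further right for Atf3, Egr1, Gm26532, Hmgcs1, Ppp1r15a, Idi1 and Cd209a, level for Sqle and further left for the other genes.

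The promoters of Hmgcs1 and Ppp1r15a are shown because each belongs to one of the gene groups that lead the cluster and holds a motif known for that group. They were picked for that motif, which the other leading genes with a window lacked, so they do not stand for their groups. The windows are the 250 bases before the annotated start, from RefSeq on GRCm38.p6, at chr13:119690101-119690350 on the plus strand and chr7:45526269-45526518 on the minus strand, each written 5′ to 3′ in the direction of its gene. Capitals mark CACCCCAC, the core of the sterol regulatory element, 136 to 129 bases before the start of Hmgcs1, and TGACGTCA, the cyclic AMP response element that ATF and CREB factors bind, 12 to 5 bases before the start of Ppp1r15a.
Hmgcs1: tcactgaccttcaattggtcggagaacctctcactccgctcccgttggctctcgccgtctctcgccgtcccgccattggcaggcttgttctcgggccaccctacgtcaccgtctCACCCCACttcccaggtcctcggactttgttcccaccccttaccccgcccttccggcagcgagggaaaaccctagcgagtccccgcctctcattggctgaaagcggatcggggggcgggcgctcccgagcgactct
Ppp1r15a: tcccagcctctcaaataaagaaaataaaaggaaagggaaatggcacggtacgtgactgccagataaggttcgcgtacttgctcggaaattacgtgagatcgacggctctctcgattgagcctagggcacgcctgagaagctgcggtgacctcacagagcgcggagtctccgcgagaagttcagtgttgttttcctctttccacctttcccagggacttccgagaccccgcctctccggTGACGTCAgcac
Of the 15 leading genes 10 had a RefSeq window, and motifs were searched on both strands. CACCCCAC was in 1 of the 10, against 2.58% of all 32851 windows, the full sterol regulatory element, which contains it, in 0 of 10 against 0.0731%, and TGACGTCA in 1 of 10 against 1.55%. CCAAT was in 6 of the 10 (Fasn, Pmvk, Hmgcs1, Idi1, Tcea3 and Suox) against 33.8% of all windows. A match describes the letters of the window and is no evidence of binding in these cells.

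Cd209a, a C-type lectin receptor, separated cluster 3 from clusters 1 and 9 more than from cluster 0. On GRCm38 it lies on chromosome 8 at 3743397 to 3748984, beside Cd209d (3871824 to 3878555), Cd209b (3917655 to 3926844) and Cd209c (3940222 to 3954746). These are related genes of 1 family, and any reads they share could be lost or misassigned in counting. It stood at 647 CPM (620 to 674) in cluster 3, against 456 in cluster 0, 118 in cluster 9 and 78.0 in cluster 1. In steady state it was higher, at 1109 CPM, while the steady-state cells of cluster 1 stood at 217 and those of cluster 9 at 173. Cluster 3 ranked 2 of 16 clusters there, below the 14 steady-state cells of cluster 0 at 1215 CPM. At least 1 Cd209a UMI was found in 77.7% (73.9 to 81.3) of the GM-CSF-conditioned cells and 90.9% (82.9 to 96.0) of the steady-state cells, with shares of 41.2 and 59.0% expected when each cell is thinned to 1000 UMIs, which left out no cell. Neutrophils, which should lack the gene, had shares of 0.784 and 1.37% (medians 4404 and 6461.5 UMIs per cell).

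Mgl2, the gene of CD301b, was nearly as high in cluster 3 as in cluster 0, at 513 CPM (490 to 538) against 527, and stood at 110 in cluster 1 and 25.6 in cluster 9. In steady state the same cluster held only 52.3 CPM (37.0 to 71.7), with a UMI in 15.9% of cells against 79.7% in the GM-CSF library (4.31 and 35.7% when thinned). Clec10a, its near-identical neighbour on chromosome 11 and the gene of CD301a, was at 226 CPM (210 to 243) in cluster 3, 156 in cluster 0, 169 in cluster 1 and 28.2 in cluster 9. Unlike Mgl2, it was as high in steady state (260 CPM, 224 to 300), with a UMI in 55.7% of steady-state and 58.8% of GM-CSF-conditioned cells (19.4 and 18.3% when thinned). The ratio of the GM-CSF to the steady-state library was 9.70 (7.13 to 13.9) for Mgl2, 28.0 with each cell thinned to 1000 UMIs, and 0.868 (0.741 to 1.03) for Clec10a.

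The antibody tags, which the RNA clusters did not use, placed the GM-CSF-library cells of cluster 3 high for CD301b and low for CD115. In the GM-CSF library the median tag count of CD301b was 103.5 (quartiles 29.75 and 281), against 187 in cluster 0, 11 in cluster 1 and 6 in cluster 9, which ranked cluster 3 in place 2 of the 13 clusters with at least 50 cells. CD115 had a median of 26 (14 to 46), against 57, 52 and 4, and ranked 10. The cells were thus nearer to cluster 0 in CD301b but held fewer CD115 tags than clusters 0 and 1. MHC class II had a median of 393 (249 to 644.25), close to 399.5 in cluster 0, CD11c a median of 176.5 (120.75 to 260), between 131 in cluster 1 and 263 in cluster 0, and Ly6C a median of 13 (10 to 17), with medians from 10 to 19 in the other 3. Quartiles of these distributions overlapped between cluster 3 and cluster 0 for all 5 tags.

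The CD115 gate followed from these tags. In the GM-CSF library 21 of 512 cells (4.10%, Clopper-Pearson 2.56 to 6.20) were CD115hi and 15 (2.93%, 1.65 to 4.79) were P-IV, against 167 of 668 (25%) P-IV cells in cluster 0 and 41 of 577 (7.11%) in cluster 1. CD115hi cells of any subset made up 28.1% of cluster 0, 26.9% of cluster 1 and 0.847% of cluster 9 in that library. The 21 gated cells of cluster 3 had CD115 counts of 86 to 192 and the other 491 cells 1 to 83. Outside the gate CD301b was still at a median of 100, against 311 inside it. In steady state 3 of 88 cells were CD115hi, 1 of them P-IV.

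Steady-state cells of cluster 3 had other tag counts. Their median was 2 for CD115 (1 to 6.25), 61 for CD11c (19.25 to 139.75), 65 for Ly6C (35.75 to 103), 325 for MHC class II (83.75 to 671.5) and 1 for CD301b (0 to 1). CD301b and CD115 quartiles did not overlap between the libraries, with higher counts in the GM-CSF library, and neither did those of Ly6C, which were higher in steady state. Tag counts also differed between the libraries in clusters 0, 1 and 9, and GM-CSF cannot be told apart from the library here either.

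**Figure D2:**
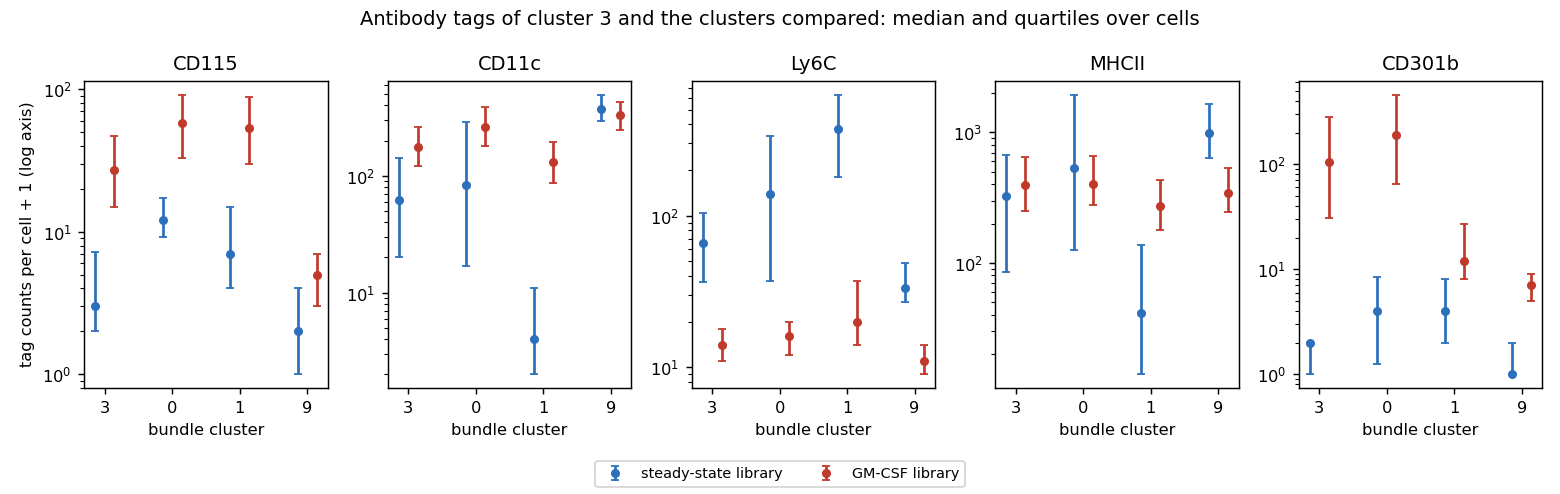
Median and quartiles over cells of the counts of 5 antibody tags (plus 1, log axis) in bundle clusters 3, 0, 1 and 9, in the steady-state (blue) and GM-CSF (red) libraries; steady-state cluster 0 holds 14 cells. In the GM-CSF library cluster 3 stands beside cluster 0 for CD301b (103.5 and 187) and below it for CD115 (26 and 57).

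Within the GM-CSF library CD301b tags spread over a wide range in cluster 3, and RNA differed along it. The 512 cells were put in tertiles of 171, 171 and 170 cells with median CD301b counts of 14, 104 and 379. Mgl2 stood at 207, 527 and 775 CPM from the lowest to the highest tertile, a ratio of 3.73 (3.22 to 4.35), so that tag and RNA of the same gene went together across cells. Of 5317 genes with at least 50 UMIs over the highest and lowest tertile, 18 (0.339%) were at least 2-fold higher and 13 (0.244%) at least 2-fold lower in the highest. The higher genes held other lectins of the CD209 group: Cd209c stood at 13.2, 34.0 and 49.7 CPM and Cd209d at 25.4, 34.0 and 72.5. Cd209a went from 453 over 707 to 762 CPM, a ratio of 1.68 (1.504 to 1.88). Mmp12, a macrophage metalloelastase, stood at 104, 181 and 235 CPM, and Epcam, an adhesion molecule, at 25.4, 26.1 and 59.0.

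On the other side stood Clec10a and Plac8, a gene high in classical monocytes. Clec10a went from 313 over 223 to 152 CPM (2.06-fold lower in the highest tertile) and Plac8 from 1531 over 907 to 644 (2.38-fold lower). The 2 neighbouring lectin genes thus went in opposite directions along the CD301b tag. The RNA of H2-Aa (ratio 1.08), Itgax (1.07), Csf1r (1.06) and Atf3 (0.995) differed little between the outer tertiles. The other tags had higher medians in the highest than in the lowest tertile. They were 456.5 and 380 for MHC class II, 213 and 162 for CD11c, 30 and 25 for CD115, and 14 and 12 for Ly6C. The tertiles were cut on raw tag counts, and the cause was not tested. The median UMIs per cell were 6171, 6665 and 6689.5, and 11.1, 9.36 and 7.06% of cells were in S or G2/M phase. The P-IV cells numbered 0, 5 and 10, but P-IV is gated on the CD301b tag that set the tertiles. These counts therefore follow in part from the split and are no separate result.

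**Figure D3:**
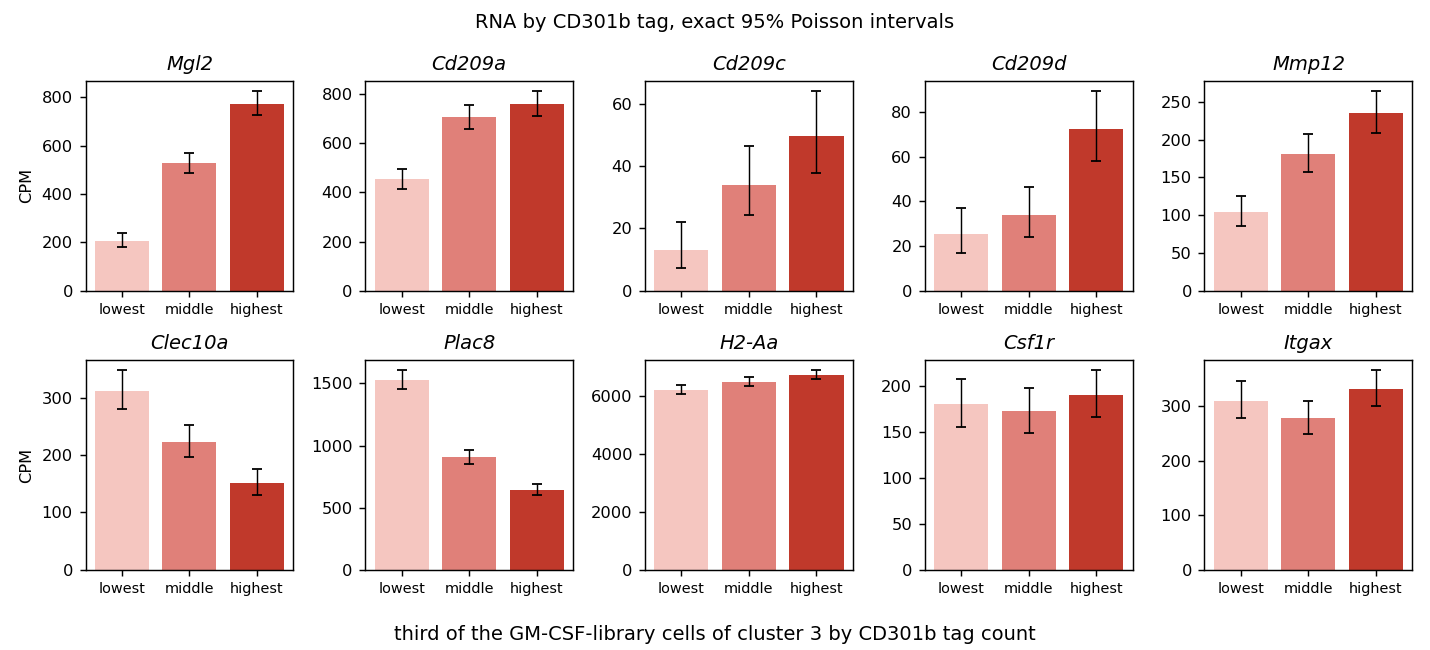
CPM of 10 genes (bars from 0, exact 95% Poisson intervals) in the lowest, middle and highest tertile by CD301b tag count of the 512 GM-CSF-library cells of cluster 3. Mgl2, Cd209a, Cd209c, Cd209d and Mmp12 are higher and Clec10a and Plac8 lower toward the highest tertile, and H2-Aa, Csf1r and Itgax differ little.

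Of the 3 neighbours, cluster 0 differed from cluster 3 in the fewest genes. Of 8307 genes with at least 50 UMIs over both, 109 (1.31%) were at least 2-fold higher and 57 (0.686%) at least 2-fold lower in cluster 3, around a median log2 ratio of 0.03. The higher genes included Flt3, the cytokine receptor of DC progenitors, at 44.5 CPM (37.7 to 52.1) against 6.69, a ratio of 6.56 (4.49 to 10.1). Cd7 stood at 43.0 CPM against 5.61, Ctnnd2, a catenin, at 17.1 against 1.73 and Ptgs2, the inducible cyclooxygenase, at 18.5 against 2.37. Among the lower genes, Cd63, a lysosomal tetraspanin, stood at 2.36 CPM against 43.6 (17.5-fold lower), F7, coagulation factor VII, at 1.77 against 32.4 (16.98-fold lower), Fcrls at 7.07 against 74.3 (10.3-fold lower) and Fn1, fibronectin, at 18.0 against 125 (6.91-fold lower). Other genes among the 10 highest and 10 lowest rested on 1 cell: 63.2% of the Cxcl10 UMIs of cluster 3 came from 1 cell, and in cluster 0 a single cell gave 73.4% of the Ccl24 UMIs, while for each of 4 globin genes at least 98.98% came from 1 cell.

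Cluster 1 differed more. Of 8039 genes, 194 (2.41%) were at least 2-fold higher and 128 (1.59%) at least 2-fold lower in cluster 3. The CD209 genes were among the highest, with Cd209b at 41.5 CPM against 3.48 and Cd209d at 44.8 against 4.93, as was Itgae, the integrin CD103, at 30.3 against 1.16 (ratio 23.4, 9.91 to 97.8). Ctnnd2 had 0 UMIs in cluster 1 and was at least 19.6-fold higher in cluster 3 (floor of 3 counts over the group). Ccl17, a chemokine for T cells, stood at 16.5 CPM against 1.74, but at 47.1 in cluster 0. Among the lower genes, Fn1 stood at 18.0 CPM against 286 (15.8-fold lower), Ace at 2.94 against 45.8 (14.9-fold lower), Cx3cr1, the fractalkine receptor, at 4.12 against 56.0 (13.1-fold lower) and Chil3 at 7.66 against 73.4 (9.42-fold lower). All 5 classical monocyte genes that could be compared were lower, and their list summed to 1350 CPM against 4531.

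Cluster 9 differed most, with higher Flt3, Kit and Cd7 and more cells in cycle, although 62.3% of its GM-CSF-library cells were in G1 phase. Of 7457 genes, 640 (8.58%) were at least 2-fold higher and 327 (4.39%) at least 2-fold lower in cluster 3. Mgl2 was 19.8-fold (14.6 to 28.5) higher, Cxcl2, a neutrophil chemokine, stood at 59.2 CPM against 1.34, Il1rl1, the IL-33 receptor, at 58.6 against 1.34 and Ptgir, the prostacyclin receptor, at 60.1 against 0.672. Genes of cDC2s and of dividing cells were lower, both of the 2 cDC2 markers compared among them. Dtx1 had 0 UMIs in cluster 3 against 55.8 CPM (at least 63.2-fold lower), Cd4 stood at 2.06 against 77.3 CPM (35.2-fold lower), Ccr6 at 0.883 against 44.4, and Birc5, a gene of mitosis, at 1.18 against 119 (90.1-fold lower). Of 16 mitosis genes compared 15 were at least 2-fold lower, and 47 of 512 cells of cluster 3 (9.18%, 6.82 to 12.02) were in S or G2/M phase by the deposited calls, against 37.7% in cluster 9, 13.8% in cluster 0 and 19.1% in cluster 1. Phases read the cycle genes and the mitosis list was chosen by the study on these cells, so the 2 are not independent.

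Part of these genes showed the same side in the steady-state library, whose cells were clustered together with the others. Against cluster 1, 60 genes higher in the GM-CSF library could be compared in steady state and 31 of them were at least 2-fold higher there (51.7% of the GM-CSF list and 22.8% of the steady-state list), while 4.19% of all 3294 genes were at least 2-fold higher and 4.92% lower. Against cluster 9 the count was 83 of 290 (28.6 and 61.5%), beside 2.88% higher and 5.31% lower of all 4750 genes. For genes lower in cluster 3 the counts were 41 of 55 (74.5 and 26.1%) and 93 of 200 (46.5 and 41.7%). Cd209a was 5.07-fold (4.02 to 6.56) above cluster 1 and 6.402-fold (5.44 to 7.61) above cluster 9 in steady state. Flt3 was 8.72-fold above cluster 1, as in the GM-CSF library (8.79-fold), but 1.70-fold (1.35 to 2.14) above cluster 9, where the GM-CSF library had it 2.60-fold below.

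The study listed 10 genes (Asb2, Ccnd1, Cd7, Ckb, Dnase1l3, Ffar2, H2-Oa, Ltb, Rgs1 and Tbc1d4) for clusters 9, 12 and 14. It called only cluster 9 progenitor-like, and the name DC progenitor list is given here. In cluster 3 these genes stood between their levels in clusters 0 and 1 and that in cluster 9. Their summed level was 533 CPM in cluster 3, 196 in cluster 0, 193 in cluster 1 and 3771 in cluster 9. Of the 10 genes 8 were at least 2-fold above cluster 0 (median log2 ratio 1.43, all genes 0.03), 8 above cluster 1 (1.73, all genes 0.02) and 10 below cluster 9 (-2.70, all genes 0.03). H2-Oa, which restrains peptide loading of MHC class II, stood at 76.0 CPM against 28.9, 15.9 and 275, and Rgs1, a regulator of G-protein signaling, at 46.5 against 11.9, 12.8 and 307. The study chose this list on these cells, so its direction is a description. In steady-state cells of the cluster the list summed to 1586 CPM, and 7 of the 10 genes were at least 2-fold lower in the GM-CSF library.

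The DC transcription factors were less uneven. Zbtb46, a factor of classical DCs, stood at 50.9 CPM (43.6 to 59.1) in cluster 3, 40.2 in cluster 0, 17.7 in cluster 1 and 61.9 in cluster 9, and at 55.0 in steady state. Irf4, a factor of cDC2s and monocyte-derived DCs, stood at 64.5 CPM (56.2 to 73.6), the highest of the 15 clusters, against 51.6, 50.7 and 42.4, and at 97.7 in steady state. Irf8, a factor of monocytes and cDC1s, stood at 145 CPM (132 to 158) against 189, 265 and 12.1, and Batf3, its partner in cDC1s, at 252 (235 to 269) against 284, 263 and 229. In Kit, the stem cell factor receptor, cluster 3 had 10.3 CPM (7.18 to 14.3), against 1.08 in cluster 0, 0.870 in cluster 1 and 102 in cluster 9. Of the 6 genes of the DC lineage list 1 of 5 compared was at least 2-fold above cluster 0, 3 of 5 above cluster 1 and 2 of 6 below cluster 9.

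H2-Aa, a chain of MHC class II, stood at 6501 CPM in cluster 3, the highest of the 15 clusters, against 6181 in cluster 0, 5040 in cluster 1 and 4540 in cluster 9. Of 10 MHC class II genes 1 was at least 2-fold higher than in cluster 0 (H2-Oa), 3 than in cluster 1, and 1 was higher and 2 lower than in cluster 9. Of all genes compared, 1.31, 2.41 and 8.58% were higher, and 4.39% were lower than in cluster 9. H2-Oa is also a member of the DC progenitor list, so it counts in both. The P-IV genes of the study, 32 genes chosen on these cells, were 0 higher and 2 lower against cluster 0 (median log2 ratio -0.18), 15 higher against cluster 1 (0.85) and 18 higher against cluster 9 (1.45). Fgfr1 stood at 272 CPM (255 to 290), against 294, 46.7 and 34.3. Mmp12, at 176 CPM (162 to 190), was 3.01-fold lower than the 530 of cluster 0 and higher than the 63.2 of cluster 1 and 60.5 of cluster 9. Of 10 C-type lectins compared 0 were at least 2-fold apart from cluster 0, 2 were higher and 1 lower than in cluster 1, and 7 were higher than in cluster 9 (2343 CPM in all against 2161, 1604 and 781).

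Immediate early genes were higher in cluster 3 than in all 3 neighbours. Their 10 genes summed to 5109 CPM, against 2577 in cluster 0, 2298 in cluster 1 and 2670 in cluster 9, and 5, 7 and 4 of them were at least 2-fold higher (median log2 ratios 1.09, 1.21 and 0.91). Jun, a subunit of AP-1, stood at 483 CPM (460 to 507), against 210, 166 and 278, Dusp1, a phosphatase of MAP kinases, at 538 against 230, 220 and 258, and Fos, another AP-1 subunit, at 264 against 83.8, 137 and 174. Of 6 heat shock genes 2, 2 and 3 were at least 2-fold higher, among them Hspa1a at 95.1 CPM against 28.5, 13.6 and 11.4. Their sum was 2940 CPM, against 2609 in cluster 0, 2972 in cluster 1 and 1908 in cluster 9, so the list as a whole was not above cluster 1. Of all genes compared, 1.31, 2.41 and 8.58% were at least 2-fold higher. Of 84 ribosomal protein genes and 80, 80 and 77 respiratory chain genes compared, 0 were at least 2-fold apart from any of the 3 clusters.

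**Figure D4:**
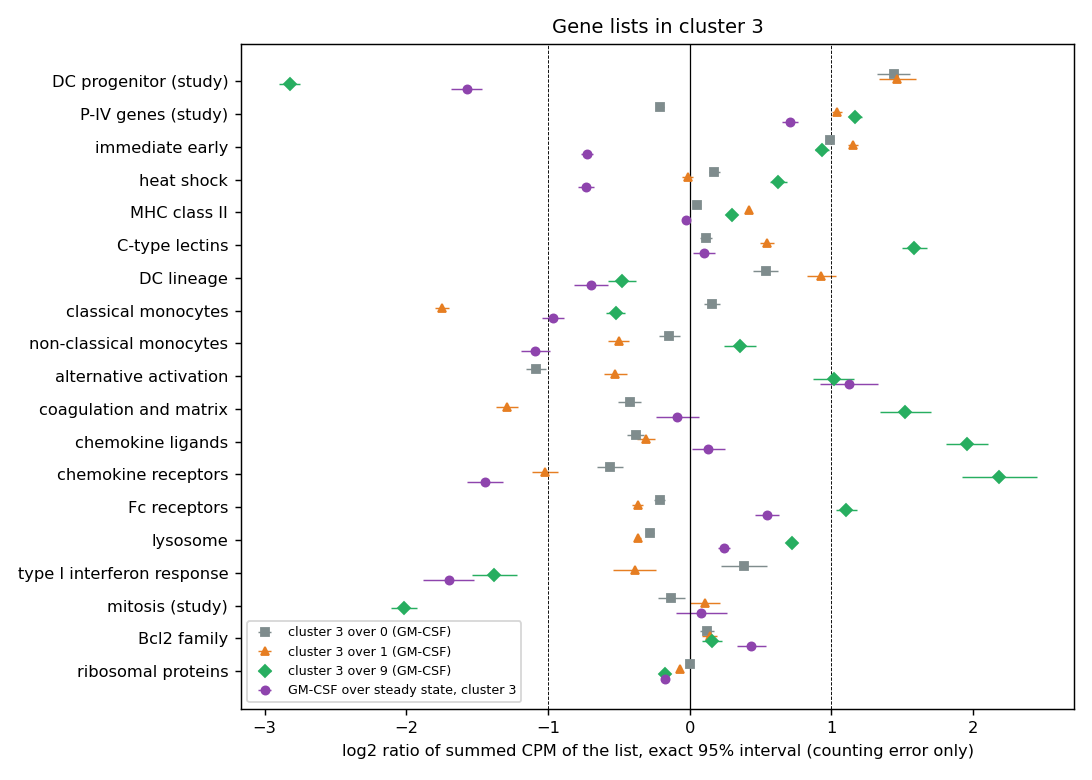
Log2 ratio of the summed CPM of 19 gene lists (exact 95% intervals for counting error, dashed lines at 2-fold) for cluster 3 over clusters 0, 1 and 9 in the GM-CSF library and for the GM-CSF over the steady-state library within cluster 3. The DC progenitor list lies to the right against clusters 0 and 1 and far to the left against cluster 9 and steady state, and the immediate early list lies to the right against all 3 clusters and to the left against steady state.

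Between the libraries, monocyte and heat shock genes of cluster 3 were lower and Fc receptor genes higher after GM-CSF, while the chains of the GM-CSF receptor differed little. Of 7043 genes with at least 50 UMIs over both, 444 (6.3%) were at least 2-fold higher and 321 (4.56%) at least 2-fold lower in the GM-CSF library, around a median log2 ratio of -0.01. Csf2ra, the alpha chain of the GM-CSF receptor, stood at 229 CPM (214 to 246) against 184 (154 to 218) and Csf2rb, its beta chain, at 248 (232 to 266) against 210 (178 to 247). Of 9 genes of the receptor and STAT5 list 1 was at least 2-fold higher, Socs3, a feedback inhibitor of cytokine signaling (2.77-fold, 1.69 to 5.20).

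The 12 genes with the highest ratio all had 0 UMIs in the 88 steady-state cells, so that only a lower bound can be given. Dok2, an adaptor of receptor tyrosine kinases, stood at 186 CPM (172 to 201), at least 45.0-fold higher, Htra3, a serine protease, at 110 (at least 26.8-fold) and Lpl, lipoprotein lipase, at 70.7 (at least 17.1-fold). The others were Slc52a3, Slc27a3, Mras, Itgae, Adra2a, Gprc5c, En2, Slc13a3 and Gm8113, with bounds from 4.99 to 10.1. Those that could be compared elsewhere were not higher in cluster 3 alone. All 7 compared in cluster 1, all 3 in cluster 2 and all 3 in cluster 5 were at least 2-fold higher in the GM-CSF library there too. In cluster 1 Dok2 stood at 215 CPM against 17.4 and Lpl at 205 against 34.8. In cluster 9 none of the 12 had the 50 UMIs needed, and Lpl stood at 6.05 CPM (9 UMIs) against 9.99 (10 UMIs). Of 4 Fc receptor genes 3 were at least 2-fold higher, among them Fcgr3, an activating receptor, at 291 CPM (273 to 310) against 30.3 (19.0 to 45.8). Clec4n, dectin-2, stood at 178 CPM (164 to 193) against 6.88 (2.23 to 16.0), Fgfr1 at 272 against 50.9 and Cd200r1, an inhibitory receptor, at 77.7 against 6.88. Itgax, the gene of CD11c, stood at 306 CPM against 135, a ratio of 2.26 (1.85 to 2.83), in the direction of its tag. Tag and RNA did not always go together between the libraries. For CD115 the median tag count was 26 against 2, while the ratio of Csf1r was 1.06. In cluster 1 the CD115 median was 52 against 6, while the ratio of Csf1r was 0.417. Of 32 P-IV genes 22 were at least 2-fold higher and 0 lower, with the same limit on this list, and 5 of 8 Bcl2 family genes were higher, among them Bcl2a1a (3.36-fold) and Bcl2l11 (3.13-fold). The near-identical Bcl2a1 copies could share reads.

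The 12 genes with the lowest ratio included F13a1, Cx3cr1 and Ly6c2, known from monocytes. F13a1, coagulation factor XIII, stood at 0.294 CPM (1 UMI) against 129 (104 to 158), Cx3cr1 at 4.12 against 228 (53.6-fold lower) and Ly6c2, a gene of the Ly6C antigen, at 2.65 (1.21 to 5.03) against 89.4 (69.0 to 114), the direction of the Ly6C tag. Ace was 18.5-fold lower, Ccl3 11.3-fold and Gpr183, an oxysterol receptor that guides DCs in the spleen, 12.8-fold lower. For Apoe, 3.24 CPM against 93.5, 45.6% of the steady-state UMIs came from 1 cell. Of 9 non-classical monocyte genes 7 were at least 2-fold lower and 1 higher (Ear2, 6.01-fold), and of 5 classical ones 4 were lower. Ccr2, the receptor by which monocytes leave the marrow, stood at 301 CPM against 690 (2.29-fold lower). The 12 lowest genes were not lower in cluster 3 alone. All 12 were also lower in the GM-CSF library in clusters 2 and 9, as were all 8 that could be compared in cluster 1. F13a1 was 49.9-fold lower in cluster 1 and 85.6-fold in cluster 9, and Ly6c2 57.4-fold and 104-fold.

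Flt3 and the heat shock genes were also higher in steady state. Flt3 stood at 239 CPM (205 to 278) in the 88 steady-state cells, the highest of the 16 steady-state clusters, and at 44.5 in the GM-CSF library (5.38-fold lower), with a UMI in 87.5% against 21.5% of cells (21.4 and 4.29% when thinned) and in 0 of 146 and 0 of 893 neutrophils. Kit stood at 57.8 CPM against 10.3 (5.59-fold lower) and Cd7 at 161 against 43.0 (3.75-fold lower). In cluster 9 the same ratio was 0.821 (0.654 to 1.03) for Flt3 and 0.682 (0.540 to 0.861) for Kit; whether the ratios differ between the clusters was not tested. Hspa1b, an inducible chaperone, stood at 1063 CPM in steady state and 69.2 after GM-CSF (15.3-fold lower), and Fos at 1234 and 264 (4.68-fold lower). Of 6 heat shock genes 4, of 10 immediate early genes 3 and of 5 interferon response genes 5 were at least 2-fold lower in the GM-CSF library, and Hspa1b was also lower by 48.7-fold in cluster 1 and 90.7-fold in cluster 9. H2-Aa (ratio 0.953), Csf1r (1.06, 0.874 to 1.30) and Zbtb46 (0.917, 0.653 to 1.34) differed little between the libraries, while Csf1r was on the other side of 1 in 1 of 9 alternatives.

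**Figure D5:**
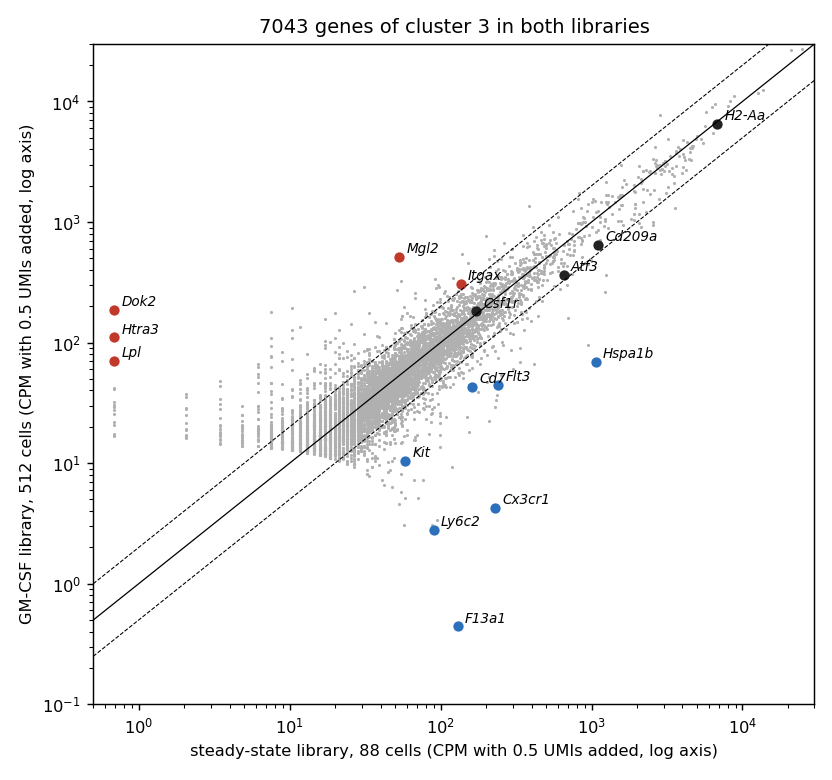
CPM with 0.5 UMIs added (log axes) of 7043 genes in cluster 3, steady-state library (88 cells) against GM-CSF library (512 cells), with the line of equal values and dashed lines at 2-fold. Named in red and blue are genes at least 2-fold higher or lower in the GM-CSF library, with Dok2, Htra3 and Lpl at 0 UMIs in steady state, and in black genes within 2-fold.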

How the data were processed

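CD11b+ splenocytes of 2 libraries, 1 per condition, were profiled for RNA and 5 antibody tags. Per the study's methods and the submitters' processing notes, the authors counted UMIs with Cell Ranger 3.0.2 on mm10 and tags with CITE-seq-Count, filtered cells on genes and mitochondrial reads, integrated both libraries in Seurat 3.6.0 and clustered the cells. The deposited values were raw counts per gene or tag and cell, with the cluster, CD115 subset and cycle phase of each cell, and the authors' percent of mitochondrial UMIs. The rule for the members, the gene lists and the comparisons were chosen with earlier results of these data known.

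Counts of the cells of a cluster and library were summed over 27998 genes and divided by their total (CPM). Shares have Clopper-Pearson and CPM exact Poisson 95% intervals, and ratios, with 0.5 counts added to each sum, exact binomial ones; all cover counting error only. Against a sum of 0, bounds rest on 3 counts over the group. Genes with at least 50 UMIs over both sums were compared, and a 2-fold difference stands in place of a test, since each condition has 1 library and cells are not replicates. Related genes (Cd209 family, Mgl2 and Clec10a, Bcl2a1 copies) may share reads, which counting could lose or misassign. Doublets were called with Scrublet in scanpy 1.11.5 for each library over all cells and were kept. Analyses ran in Python 3.11.15 with numpy 2.4.6, scipy 1.17.1 and pandas 2.3.3, and the counting steps were tested on simulated data.

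Genes named are the 15 with the largest ratio of cluster 3 to the highest other cluster of at least 100000 UMIs in the GM-CSF library, the 10 highest and 10 lowest ratios to clusters 0, 1 and 9, the 12 highest and 12 lowest ratios between the libraries, up to 4 members of a list, and genes the study named for these cells. Of the 10 highest and 10 lowest genes between CD301b tertiles, and of genes named elsewhere, some were chosen after their values were seen. Alternatives were cells thinned to 1000 UMIs, without doublets, G1 cells only, another scaling, minima of 20 and 200 UMIs, means over cells, pooled libraries and tags as centred log ratios. The alternatives with cells of mixed cluster 2 only and without 1 steady-state cell were added after seeing the data.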

Additional observations from a re-analysis of the deposited data

How the results depend on the processing

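Of 123 values of the main comparisons under an alternative, 90 stayed within 1.5 times the reported count or kept their rank, and 33 moved. No direction of a called value turned. With each cell thinned to 1000 UMIs, fewer genes reached 50 UMIs, and the genes at least 2-fold higher and lower numbered 44 and 25 against cluster 0, 59 and 46 against cluster 1, 223 and 86 against cluster 9, and 166 and 85 between the libraries. A minimum of 20 UMIs tested more genes and gave 205 and 154 against cluster 0, 331 and 231 against cluster 1, 587 lower against cluster 9, 621 lower between the libraries, and 1 gene (Flrt3) 2-fold above every other cluster. A minimum of 200 UMIs gave 39 and 22, 69 and 43, 267 and 95, and 173 and 89. Pooled libraries gave 179 genes higher than in cluster 0, and 55.0% of the genes called against cluster 9 were then higher instead of 66.2%; the cause was not tested. The count above every other cluster was also 1 without doublets (Sqle, once cluster 11 fell under the minimum of UMIs) and 1 as a mean over cells (Atf3). The rank of the MHC class II median was 3 without doublets, and with G1 cells only, which left fewer clusters to rank, the ranks were 9 for CD115, 3 for CD11c, 9 for Ly6C and 2 for MHC class II. The share of cells with a Cd209a UMI at 1000 UMIs per cell was 41.2% in the GM-CSF library and 59.0% in steady state. With pooled libraries Egr1 (0.749) and Itgax (0.939) were below cluster 9, as was Ly6c2 pooled (0.255) and thinned (0.274), against a reported 1.66 from few UMIs, and Csf1r between the libraries ranged from 0.849 to 1.20. The ratio between the libraries ranged from 8.75 to 28.0 for Mgl2, from 0.1811 to 0.1999 for Flt3 and from 0.564 to 0.618 for Cd209a. Depth limits genes at 0 in the 88 steady-state cells to under 4.13 CPM. No paired analysis was possible because each condition is 1 library.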

Other observations

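Lists of sterol synthesis and of the CD209 family were made after the values of their leading members were seen, so they describe the cluster and support nothing. The sterol synthesis genes summed to 1108 CPM in cluster 3 of the GM-CSF library, against 654 in cluster 0, 724 in cluster 1, 700 in cluster 9 and 957 in the steady-state cells of cluster 3. Of 18 genes compared 6 were at least 2-fold above cluster 0, of 17 genes 3 above cluster 1 and of 18 genes 5 above cluster 9, and none was 2-fold lower, with median log2 ratios of 0.81, 0.66 and 0.70. Between the libraries 2 of 17 were at least 2-fold higher in the GM-CSF library and the median was 0.17.

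The CD209 family held 7 genes, 2 of them at 0 UMIs in cluster 3. Its 4 genes compared with clusters 1 and 9 were all at least 2-fold higher in cluster 3, with median log2 ratios of 3.23 and 2.75, and none was 2-fold apart from cluster 0 (median 0.47). Between the libraries Cd209b (41.5 against 12.4 CPM) and Cd209c (33.0 against 11.003 CPM) were at least 2-fold higher in the GM-CSF library, while Cd209a (647 against 1109 CPM) and Cd209d (44.8 against 61.9 CPM) were lower by less than 2-fold.

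Socs3 stood at 58.9 CPM against 20.9 in cluster 0, 33.6 in cluster 1 and 18.2 in cluster 9, and Il1rl1 at 58.6 CPM against 13.8 in steady state.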
